A study of Homo sapiens with 18 samples.

Results

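The genes described here encode enzymes that write or erase acetyl and methyl marks on histones, followed through the differentiation of NB4 cells. They were taken by symbol: every gene whose symbol begins with KDM, KMT, SETD, HDAC, SIRT, PRMT or KAT followed by a digit, with EZH1, EZH2, DOT1L, EP300 and CREBBP added. A gene needed a probe set annotated to it alone, and the probe set with the highest mean over the 18 arrays stood for it. The rule found 73 of the 18417 genes that have a probe set of their own. For counting they were placed in 6 families: 20 lysine methyltransferases (KMT, SETD, EZH1, EZH2 and DOT1L), 18 lysine demethylases (KDM), 11 histone deacetylases (HDAC), 9 acetyltransferases (KAT, EP300 and CREBBP), 8 arginine methyltransferases (PRMT) and 7 sirtuins (SIRT). KDM5D is Y-linked, so it is counted but its level is not given. The symbols are names of families and not proof of histone activity: SETD3, for example, is known as a histidine methyltransferase of actin.

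NB4 is an established human line of acute promyelocytic leukemia. All-trans retinoic acid (ATRA), the ligand of the retinoic acid receptors, makes these cells leave the cell cycle and mature towards neutrophil-like cells. Wild-type NB4 cells and NB4 cells labelled TG2 knockout were left untreated or were given 1 µM ATRA for 48 h or 72 h. This makes 6 groups of 3 biological replicates each. No group is labelled as an untreated culture of 48 h or 72 h. In every comparison with untreated cells, ATRA therefore cannot be told apart from time in culture. The labels do not say how the modified line was made or whether it is 1 clone; titles use the word knockout and sample codes carry the letters KD. TG2 is transglutaminase 2, the product of TGM2, and the series was designed to set its ATRA response beside that of wild-type cells.

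Histone acetylation by enzymes such as EP300 and KAT2A loosens chromatin and serves transcription, and deacetylases of the HDAC and sirtuin families remove it. Methylation can go either way: KMT2 enzymes mark active promoters and enhancers, while EZH2, the catalytic subunit of Polycomb repressive complex 2 (PRC2), sets a mark of silenced genes that KDM6A erases. In acute promyelocytic leukemia the PML-RARA fusion protein recruits corepressors that carry HDAC3, and retinoic acid releases them.

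Promoters of members with large or often discussed changes are shown first, because the members moved in groups and a reader may wish to see what these starts look like. The sequences are from RefSeq (GRCh38.p14), 5′ to 3′ on the gene's strand, and run from 250 bases before the annotated start to 10 bases after it. Capitals mark any match, on either strand, to an E2F motif (TTTCCCGC, TTTCGCGC, TTTGCCGC or TTTGGCGC), a CCAAT box (CCAAT) or a GC box (GGGCGG). EZH2 lies at chr7:148884282-148884541 (minus strand), PRMT5 at chr14:22929367-22929626 (minus strand), KMT2C at chr7:152435994-152436253 (minus strand) and SIRT5 at chr6:13574351-13574610 (plus strand). PRMT5, KMT2C and EZH2 fell under ATRA and SIRT5 rose.
EZH2: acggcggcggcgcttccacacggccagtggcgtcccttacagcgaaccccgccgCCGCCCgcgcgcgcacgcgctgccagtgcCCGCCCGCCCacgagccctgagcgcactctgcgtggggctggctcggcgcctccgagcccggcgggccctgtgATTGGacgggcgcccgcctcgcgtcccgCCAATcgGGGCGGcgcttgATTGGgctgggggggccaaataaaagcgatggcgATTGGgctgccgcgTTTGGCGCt
PRMT5: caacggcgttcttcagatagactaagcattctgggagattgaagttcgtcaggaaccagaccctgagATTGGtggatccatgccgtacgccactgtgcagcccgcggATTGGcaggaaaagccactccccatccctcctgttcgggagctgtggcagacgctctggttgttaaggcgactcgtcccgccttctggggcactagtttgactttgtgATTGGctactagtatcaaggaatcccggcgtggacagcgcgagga
KMT2C: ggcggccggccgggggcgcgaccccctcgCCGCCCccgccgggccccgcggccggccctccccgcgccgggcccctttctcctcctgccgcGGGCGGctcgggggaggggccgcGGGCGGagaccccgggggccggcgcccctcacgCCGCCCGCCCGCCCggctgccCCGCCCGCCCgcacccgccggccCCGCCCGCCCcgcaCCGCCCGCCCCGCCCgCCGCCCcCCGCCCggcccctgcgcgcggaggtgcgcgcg
SIRT5: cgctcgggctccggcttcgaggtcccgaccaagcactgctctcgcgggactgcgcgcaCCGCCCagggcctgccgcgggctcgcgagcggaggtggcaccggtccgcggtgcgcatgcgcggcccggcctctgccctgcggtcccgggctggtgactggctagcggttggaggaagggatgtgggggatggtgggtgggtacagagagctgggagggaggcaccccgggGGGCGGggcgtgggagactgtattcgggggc

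The 4 stretches have little in common. They hold 40 (EZH2), 16 (PRMT5), 51 (KMT2C) and 29 (SIRT5) CpG. That of EZH2 holds 1 E2F match, which lies just after the start, with 4 CCAAT boxes and 4 GC boxes. PRMT5 holds 3 CCAAT boxes and no GC box, KMT2C holds 15 GC boxes and no CCAAT box, and SIRT5 holds 2 GC boxes. A window of 300 bases (250 before to 50 after the start) was on hand for 67 of the 73 members. An E2F match occurred in 4 of them (EZH1, EZH2, KDM1B and SIRT6), which is 5.97% against 3.33% of all 27305 promoters of that length. GC boxes were in 68.7% of member promoters against 44.6% of all, CCAAT boxes in 32.8% against 35.7%, and the nuclear receptor motif AGGTCA in 7.46% against 13.9%. The TATA motif (TATAAA) was in 0 of 67 member promoters against 12% of all. The ETS motif (CCGGAAG) was in 19.4% against 10.7%, and the E-box (CACGTG) in 11.9% against 7.43%. The median number of CpG per window was 29 in members and 14 over all promoters. These are counts of letters, on both strands, and GC boxes may overlap each other; they are not binding sites.

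The values are 1 number per probe set and array, taken as log2 signal because they lie between 0.73 and 13.56, though no source used here states the scale. A difference of 1 is then a 2-fold change. Signals of different probe sets cannot be compared as amounts, so each gene is set only against itself. TGM2, the gene named by the genotype, was read as 6.40, 6.27 and 6.61 in untreated wild-type arrays and as 6.30, 6.51 and 6.36 in untreated TG2 knockout arrays. With ATRA it reached 12.34, 12.06 and 12.40 at 48 h and 12.54, 12.19 and 12.39 at 72 h in wild-type cells, and 11.01, 10.56 and 11.29 at 48 h and 11.61, 10.87 and 11.25 at 72 h in TG2 knockout cells. TGM2 thus rose in both genotypes and was lower in TG2 knockout cells by 1.31 at 48 h and by 1.13 at 72 h (adjusted p = 0.0345 and 0.0267); where its probes lie relative to the alteration is not given in the sources used here. Arrays of the ATRA groups varied more than untreated ones: the median SD over members was 0.0462 and 0.0603 in the untreated groups and 0.164 to 0.227 in the ATRA groups. On the first principal component of all probe sets, 4 ATRA arrays (wild-type 48 h replicate 1, TG2 knockout 48 h replicates 1 and 3, and TG2 knockout 72 h replicate 2) lay between 17.5 and 31.2, nearer the untreated arrays than the other ATRA arrays were.

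After ATRA far more of these genes were called lower than higher, in both genotypes. In wild-type cells 33 of 73 members were called lower and 6 higher at 48 h, and 31 lower and 6 higher at 72 h, by limma at an adjusted p below 0.05. In TG2 knockout cells 36 were lower and 6 higher at 48 h, and 32 lower and 4 higher at 72 h. A call alone is common here, since over all 18417 genes 39.1%, 44%, 42.8% and 41.7% were called in these 4 comparisons. By direction, 45.2%, 42.5%, 49.3% and 43.8% of them were lower, where 22.6%, 24.4%, 24.5% and 23.5% of all genes were lower. Members were higher in 8.22%, 8.22%, 8.22% and 5.48%, where 16.5%, 19.6%, 18.3% and 18.2% of all genes were higher. Changes of at least 2-fold were called for 10, 15, 11 and 7 members, against 10.6%, 12.6%, 10.4% and 10.4% of all genes. The 3 ATRA arrays lay wholly apart from the 3 untreated ones for 50, 52, 50 and 51 members, which is 68.5%, 71.2%, 68.5% and 69.9%, where 58.9%, 63.1%, 59.1% and 59% of all genes did not overlap. The median change of the members was −0.28, −0.35, −0.34 and −0.35, and that of all genes at 72 h in wild-type cells was 0.08.

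Brightness moved with this difference. Of the 73 members, 65 had a mean signal at or above the median of all probe sets, and among the 10972 genes with such signals 34.5%, 37.4%, 37.3% and 35.6% were lower and 16.5%, 18.4%, 17.1% and 15% were higher; the 65 members gave 47.7%, 46.2%, 49.2% and 44.6% lower. This comparison with brighter genes was added after the values were seen. Arrays after ATRA also had a narrower spread of values (SD over probe sets 2.12 to 2.28) than untreated arrays (2.39 to 2.40), and a quantile normalization that gives all arrays the same spread turned the counts to 24 lower and 12 higher, 23 and 14, 27 and 11, and 22 and 11. The share of rises among the called members went from 15.4%, 16.2%, 14.3% and 11.1% to 33.3%, 37.8%, 28.9% and 33.3%. After that step members were higher about as often as all genes (16.4% against 16.5% at 48 h in wild-type cells) and more often lower (32.9% against 16.9%). Beside brighter genes the gap after that step was smaller: the 65 brighter members were lower in 33.8%, 33.8%, 35.4% and 29.2%, and all brighter genes in 24.7%, 27.3%, 27.1% and 25.3%. No member was called in opposite directions by the 2 scalings. The part of the scaling and of brightness in the direction was not tested further.

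**Figure D1:**
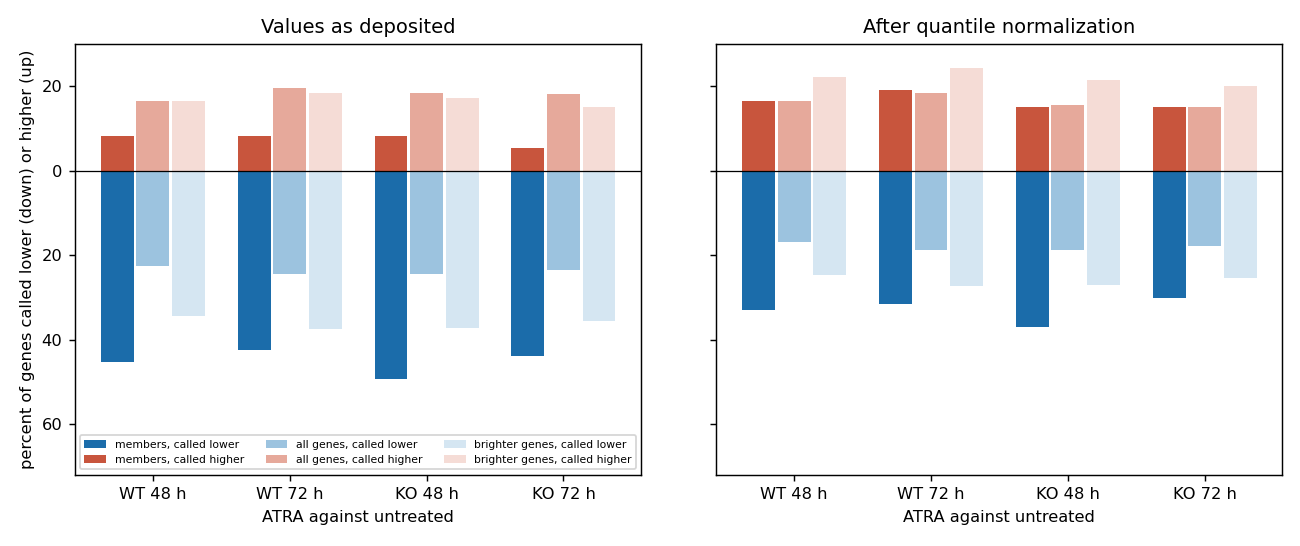
Percent of genes called higher (bars up, red) or lower (bars down, blue) after ATRA, for the 73 members (dark), all 18417 genes with their own probe set (middle) and the 10972 brighter genes (light), in wild-type (WT) and TG2 knockout (KO) cells. Left, values as deposited, with 42.5% to 49.3% of members lower; right, after quantile normalization, with 30.1% to 37% of members lower.

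In all 4 ATRA comparisons 26 members were called lower: DOT1L, EP300, EZH1, EZH2, HDAC3, HDAC8, KAT2A, KAT5, KAT6A, KAT6B, KAT7, KDM1B, KMT2A, KMT2C, KMT2D, KMT5A, PRMT1, PRMT3, PRMT5, PRMT9, SETD2, SETD3, SETD5, SETD6, SETD7 and SETD9. With quantile normalization 15 of them kept all 4 calls: EZH2, HDAC3, HDAC8, KAT7, KDM1B, KMT2A, KMT2C, KMT5A, PRMT1, PRMT5, PRMT9, SETD2, SETD3, SETD6 and SETD9. Only SIRT2, SIRT5 and SIRT7 were called higher in all 4 with both scalings. Another 24 members were called in none of the 4 comparisons. How many of all genes met these rules was not counted, so the counts are not set against a general share. In single comparisons 22.6% to 24.5% of all genes and 34.5% to 37.4% of brighter genes were lower. Since 2 comparisons of a genotype share its untreated arrays, these counts are not 4 independent results. In whole cultures, fewer cells of a kind and less RNA per cell cannot be told apart.

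**Figure D2:**
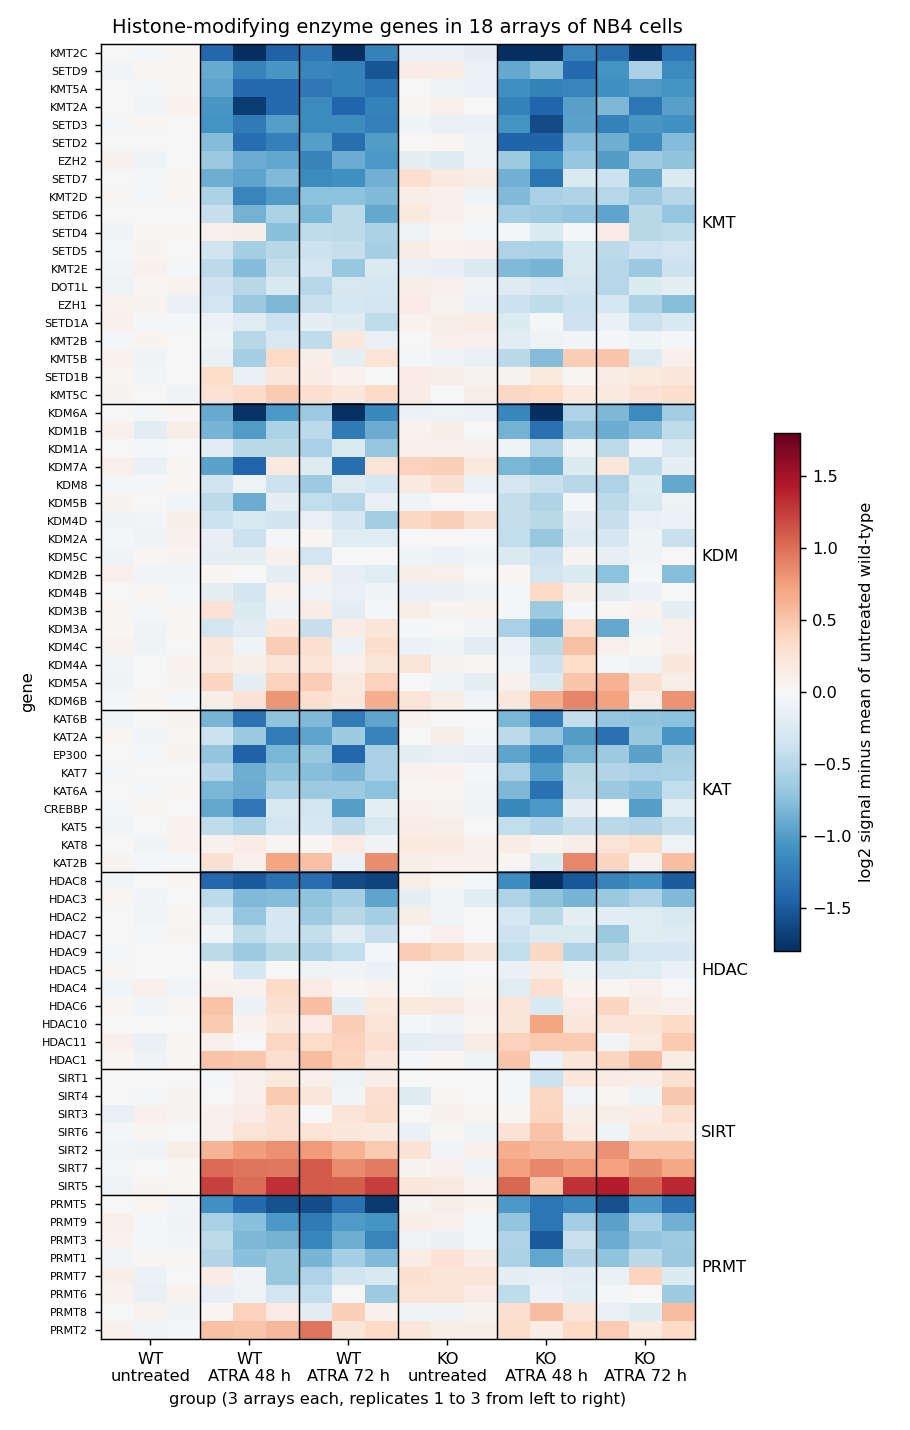
Log2 signal of 72 members (rows, by family; KDM5D is not shown) in the 18 arrays (columns, replicates 1 to 3 of each group) minus the mean of untreated wild-type arrays. Blue rows dominate the KMT, KAT and PRMT blocks under ATRA, red rows are those of SIRT5, SIRT7 and SIRT2, and untreated arrays of both genotypes are near white; with quantile normalization the medians of the HDAC and KDM families in wild-type cells turn from below to above 0.

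The lysine methyltransferases, the largest family, mostly fell. At 72 h in wild-type cells 14 of 20 fell and 1 (KMT5C, a methyltransferase of histone H4) rose, with a median change of −0.62; the counts were 14 and 1 at 48 h, and 15 and 0 at 48 h and 14 and 0 at 72 h in TG2 knockout cells. Quantile normalization left 10 to 12 falls and 1 or 2 rises in this family. As deposited, 70% to 75% of the family was lower in a comparison, beside 22.6% to 24.5% of all genes and 34.5% to 37.4% of brighter genes. The families were not split by brightness. KMT2C, an enhancer methyltransferase of a COMPASS-like complex (probe set 8143988, chromosome 7), gave 9.94, 9.92 and 9.96 in untreated wild-type arrays, 8.53, 7.81 and 8.48 at 48 h and 8.65, 8.07 and 8.73 at 72 h. Its TG2 knockout values were 9.84, 9.84 and 9.77 untreated, 8.02, 7.85 and 8.75 at 48 h and 8.58, 8.14 and 8.62 at 72 h. No ATRA array was above 8.75 and no untreated one below 9.77, and the changes of −1.67, −1.46, −1.61 and −1.37 (SE 0.23, adjusted p = 3.71e-05, 1.18e-04, 5.45e-05 and 2.41e-04) were 2.58-fold to 3.17-fold falls. KMT2A, the MLL methyltransferase rearranged in other leukemias, fell by 1.39 and 1.27 on the log2 scale in wild-type cells and by 1.24 and 1.07 in TG2 knockout cells. A dimmer second probe set of KMT2A gave −0.39, −0.49, −0.58 and −0.31, and its 48 h wild-type and 72 h TG2 knockout values were not called.

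SETD9 (probe set 8105456, chromosome 5) was read as 6.77, 6.86 and 6.84 in untreated wild-type arrays, 5.92, 5.62 and 5.77 at 48 h and 5.64, 5.61 and 5.28 at 72 h. In TG2 knockout cells the readings were 6.96, 6.96 and 6.72, then 5.90, 6.06 and 5.42, then 5.75, 6.24 and 5.67. No ATRA array reached an untreated one, and SETD9 fell by 1.05 and 1.31 in wild-type and by 1.09 and 0.99 in TG2 knockout cells (SE 0.18). KMT5A, which monomethylates histone H4 in dividing cells, fell by 1.25, 1.27, 1.11 and 1.00 (SE 0.10). Its 3 probe sets disagreed: one fell to a like degree (by 1.12, 1.17, 0.95 and 0.87) while the dimmest (0.20, 0.30, 0.12 and −0.21) was not called. SETD2, which methylates histone H3 along transcribed genes, fell by 1.13, 1.12, 1.21 and 0.92, and SETD3 fell by 1.11, 1.17, 1.11 and 1.00.

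The Polycomb enzyme EZH2 (probe set 8143663, chromosome 7) gave 10.53, 10.37 and 10.45 in untreated wild-type arrays, 9.78, 9.56 and 9.52 at 48 h and 9.25, 9.55 and 9.42 at 72 h. The TG2 knockout arrays gave 10.29, 10.22 and 10.39 untreated, 9.81, 9.37 and 9.76 at 48 h and 9.44, 9.80 and 9.73 at 72 h. Untreated and ATRA arrays did not overlap, and EZH2 fell by 0.83 and 1.04 in wild-type cells (SE 0.13, adjusted p = 1.09e-04 and 1.02e-05) and by 0.65 and 0.64 in TG2 knockout cells (adjusted p = 8.74e-04 and 0.001). EZH1, the alternative PRC2 enzyme of resting cells (probe set 8015685, chromosome 17), went from 7.57, 7.55 and 7.39 to 7.17, 6.83 and 6.70 at 48 h and 7.10, 7.19 and 7.17 at 72 h in wild-type arrays. Its TG2 knockout readings were 7.65, 7.55 and 7.40, then 7.11, 7.04 and 7.11, then 7.18, 6.94 and 6.73. EZH1 fell by 0.60, 0.35, 0.45 and 0.58 (SE 0.14), so both PRC2 enzymes were lower. The 72 h wild-type fall (adjusted p = 0.0463) lost its call without any 1 of its 6 arrays (adjusted p 0.0546 to 0.13) and with quantile normalization (adjusted p = 0.23), which also ended the 48 h TG2 knockout call (adjusted p = 0.0863).

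DOT1L, which methylates the core of histone H3 (probe set 8024391, chromosome 19), was 8.96, 9.08 and 9.11 in untreated wild-type arrays, 8.68, 8.55 and 8.78 at 48 h and 8.53, 8.76 and 8.74 at 72 h. In TG2 knockout arrays it was 9.17, 9.14 and 8.98 untreated, 8.82, 8.74 and 8.70 at 48 h and 8.54, 8.81 and 8.87 at 72 h. The groups did not overlap, yet the falls were small: 0.38, 0.37, 0.34 and 0.36 (SE 0.11, adjusted p = 0.0124, 0.0122, 0.0205 and 0.0165). Quantile normalization gave −0.10, −0.08, −0.05 and −0.08 with no call (adjusted p 0.515 to 0.782).

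Among the acetyltransferases 7 of 9 fell at 48 h and 6 at 72 h in both genotypes and none rose, with medians of −0.76 and −0.68 in wild-type and −0.76 and −0.58 in TG2 knockout cells. With quantile normalization 4 fell and 1 rose at both wild-type times, and 5 and 3 fell and none rose in TG2 knockout cells. As deposited, 66.7% to 77.8% of these genes were lower in a comparison, beside 22.6% to 24.5% of all genes and 34.5% to 37.4% of brighter genes. KAT8 and KAT2B were called in no comparison. EP300, a coactivator of many factors including nuclear receptors (probe set 8073345, chromosome 22), was 9.15, 9.12 and 9.21 in untreated wild-type arrays, 8.45, 7.70 and 8.34 at 48 h and 8.48, 7.74 and 8.58 at 72 h. Its TG2 knockout values were 8.98, 9.02 and 9.01, then 8.21, 7.95 and 8.34, then 8.50, 8.20 and 8.56. Replicate 2 was the lowest EP300 array in every ATRA group, and the falls were 1.00, 0.89, 0.84 and 0.58 (SE 0.21, adjusted p = 0.00131, 0.0026, 0.00455 and 0.0336). The last one lost its call with quantile normalization (−0.31, adjusted p = 0.28) and without any of its arrays except TG2 knockout 72 h replicate 3 (adjusted p 0.0547 to 0.112).

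CREBBP, the close relative of EP300 (probe set 7999044, chromosome 16), gave tight untreated values of 9.33, 9.37 and 9.34 in wild-type and 9.42, 9.40 and 9.29 in TG2 knockout cells. With ATRA it scattered: 8.42, 8.06 and 9.07 at 48 h and 9.01, 8.35 and 9.19 at 72 h in wild-type arrays, and 8.18, 8.31 and 9.18 at 48 h and 9.36, 8.35 and 9.13 at 72 h in TG2 knockout arrays. Only the 48 h changes of −0.83 and −0.81 (SE 0.30, adjusted p = 0.0394 and 0.0407) were called, and both calls were lost with quantile normalization (adjusted p = 0.185 and 0.215) and without any 1 of the arrays compared except replicate 3 of the ATRA group (adjusted p 0.0707 to 0.175). KAT2A, the acetyltransferase of SAGA (probe set 8015526, chromosome 17), read 9.75, 9.68 and 9.74 untreated, 9.33, 9.06 and 8.46 at 48 h and 8.77, 9.08 and 8.52 at 72 h in wild-type arrays. TG2 knockout arrays read 9.73, 9.83 and 9.70, then 9.25, 9.01 and 8.72, then 8.38, 9.04 and 8.67. Replicates differed widely within the ATRA groups but stayed below the untreated arrays, and KAT2A fell by 0.77, 0.93, 0.76 and 1.06 (SE 0.21). Its 48 h calls were lost with quantile normalization (adjusted p = 0.0714 and 0.0799).

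KAT6B, the enzyme of MORF complexes (probe set 7928491, chromosome 10), was 8.78, 8.84 and 8.88 untreated, 8.00, 7.50 and 8.11 at 48 h and 8.04, 7.57 and 7.88 at 72 h in wild-type arrays. In the other genotype it was 8.90, 8.84 and 8.84, then 8.01, 7.60 and 8.41, then 8.14, 8.11 and 8.10. No ATRA array reached an untreated one. These are falls of 0.96, 1.00, 0.85 and 0.74 (SE 0.18), the last of them not called with quantile normalization (adjusted p = 0.0505). Its paralog KAT6A (MOZ) fell by 0.76, 0.68, 0.87 and 0.62, and KAT7 (HBO1), which serves replication origins, fell by 0.71, 0.72, 0.72 and 0.59 (SE 0.12).

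Of the arginine methyltransferases PRMT1, PRMT3, PRMT5 and PRMT9 were called lower in all 4 comparisons, which is 4 of 8 members (50%) each time. Over all genes 22.6% to 24.5% were lower, and among brighter genes 34.5% to 37.4%. The rest were not called lower in any, though the means of PRMT6 and PRMT7 were lower in every ATRA group. PRMT5, which makes symmetric dimethylarginine on histones and spliceosomal proteins (probe set 7977820, chromosome 14), went from 11.18, 11.21 and 11.13 in untreated wild-type arrays to 10.09, 9.78 and 9.61 at 48 h and 9.57, 9.83 and 9.45 at 72 h. In TG2 knockout arrays it went from 11.22, 11.28 and 11.22 to 10.14, 9.87 and 10.00 and then to 9.59, 10.14 and 9.82. Every ATRA array lay more than 1 log2 unit below every untreated array of its genotype, and the falls were 2.54-fold and 2.94-fold in wild-type and 2.36-fold and 2.62-fold in TG2 knockout cells (SE 0.14 on the log2 scale, adjusted p = 2.25e-06, 4.41e-07, 5.73e-06 and 1.85e-06). PRMT9, which methylates a splicing factor (probe set 8103079, chromosome 4), was 7.66, 7.53 and 7.51 untreated, 6.98, 6.82 and 6.53 at 48 h and 6.29, 6.55 and 6.51 at 72 h in wild-type arrays. The TG2 knockout arrays had 7.69, 7.64 and 7.55, then 6.86, 6.27 and 6.96, then 6.61, 6.99 and 6.70. The groups did not overlap, and PRMT9 fell by 0.79, 1.12, 0.93 and 0.86 (SE 0.17).

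PRMT1, the main source of asymmetric dimethylarginine, fell by 0.66, 0.74, 0.85 and 0.80 (SE 0.11), and PRMT3, which acts on a ribosomal protein, fell by 0.71, 1.08, 0.76 and 0.68 (SE 0.21). With quantile normalization PRMT3 lost its calls at 48 h in wild-type (adjusted p = 0.0742) and at 72 h in TG2 knockout cells (adjusted p = 0.087). PRMT2 rose in wild-type cells by 0.54 and 0.51 (SE 0.15, adjusted p = 0.0109 and 0.0125) and its changes of 0.13 and 0.18 in TG2 knockout cells were not called; PRMT2 was picked out after its values were seen, and no difference of response was called for it.

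**Figure D3:**
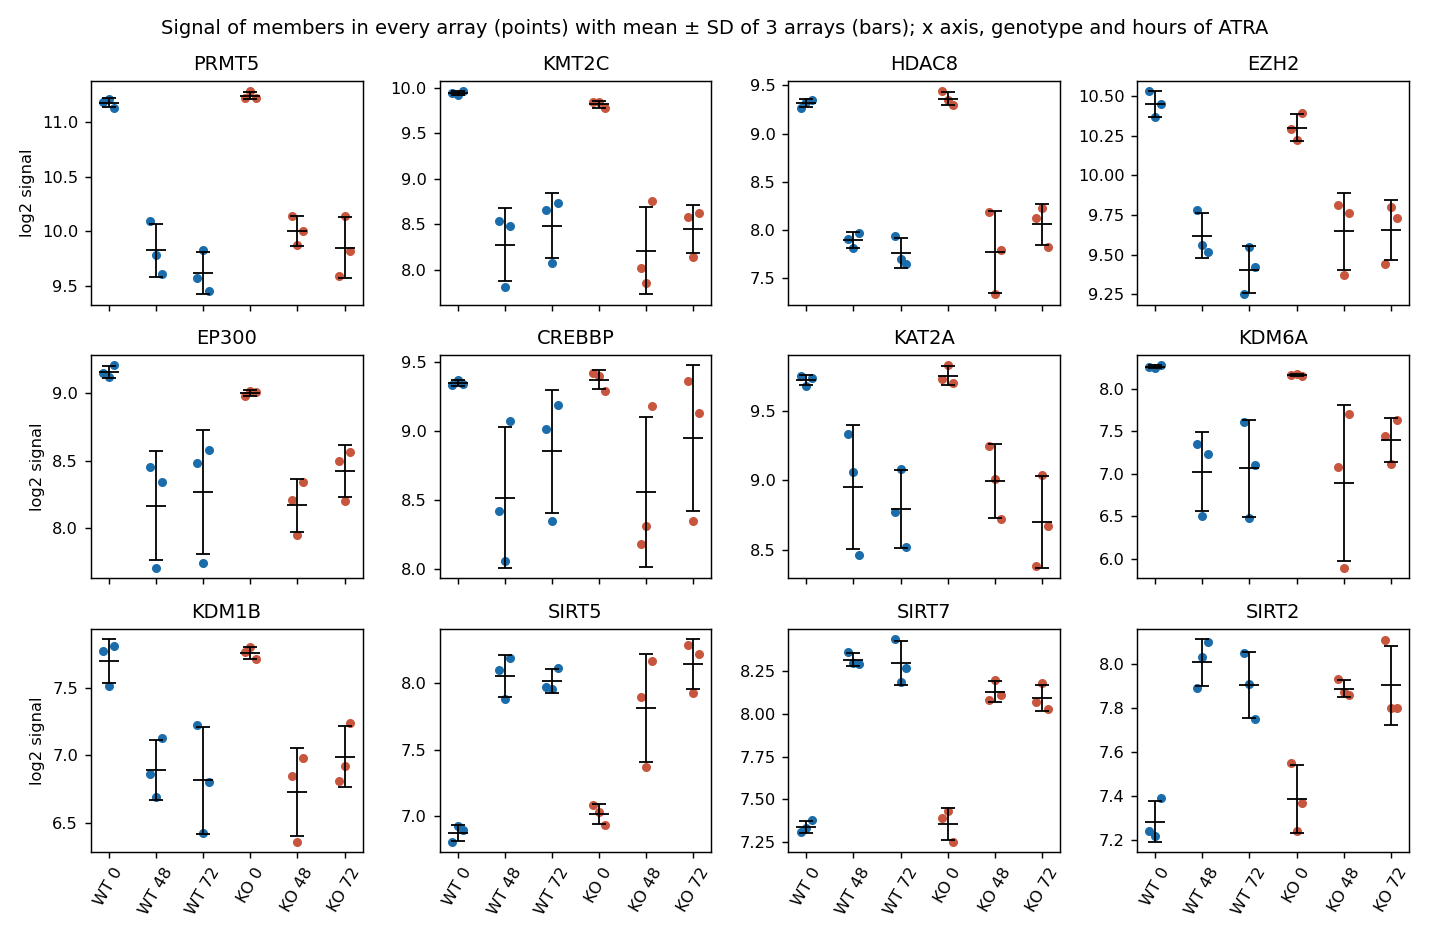
Log2 signal (vertical axis, a separate scale in each panel) of 12 members in each array, with the mean ± SD of 3 arrays, for wild-type (WT, blue) and TG2 knockout (KO, red) cells at 0, 48 and 72 h of ATRA (horizontal axis). Untreated points lie close together and ATRA points scatter more, as in KDM6A, where the 3 arrays of TG2 knockout cells at 48 h range from 5.89 to 7.70; SIRT5, SIRT7 and SIRT2 rise while the means of the other 9 are lower after ATRA.

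The histone deacetylases split. HDAC8, a class I enzyme that also deacetylates cohesin (probe set 8173531, chromosome X), gave 9.27, 9.33 and 9.35 in untreated wild-type arrays, 7.90, 7.81 and 7.97 at 48 h and 7.94, 7.70 and 7.65 at 72 h. Its TG2 knockout values were 9.44, 9.35 and 9.30, then 8.19, 7.33 and 7.79, then 8.12, 8.23 and 7.82. All ATRA arrays lay more than 1 log2 unit below the untreated ones, and HDAC8 fell 2.68-fold and 2.93-fold in wild-type and 3.02-fold and 2.47-fold in TG2 knockout cells (SE 0.17 on the log2 scale, adjusted p = 6.81e-06, 2.36e-06, 2.38e-06 and 1.75e-05). HDAC3, the catalytic subunit of the corepressors bound by unliganded retinoic acid receptors (probe set 8114691, chromosome 5), was 10.28, 10.19 and 10.25 untreated, 9.77, 9.44 and 9.46 at 48 h and 9.51, 9.64 and 9.29 at 72 h in wild-type arrays. TG2 knockout arrays had 10.08, 10.19 and 10.02, then 9.68, 9.52 and 9.41, then 9.57, 9.69 and 9.45. Here too no ATRA array reached an untreated one, and HDAC3 fell by 0.68, 0.76, 0.56 and 0.53 (SE 0.12).

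The paired nuclear deacetylases HDAC1 and HDAC2 were called in opposite directions in wild-type cells, though most of these calls were not stable. HDAC1 rose by 0.43 and 0.38 (SE 0.14, adjusted p = 0.0217 and 0.0339), and HDAC2 fell by 0.40 and 0.58 (SE 0.12, adjusted p = 0.0124 and 8.58e-04). In TG2 knockout cells HDAC1 changed by 0.23 (not called) and 0.39 (adjusted p = 0.0339) and HDAC2 by −0.34 (adjusted p = 0.0287) and −0.26 (not called). Centring each array on its median ended the HDAC1 calls (adjusted p = 0.0504, 0.0791 and 0.0905), whereas quantile normalization called HDAC1 higher in all 4 comparisons (0.45 at 48 h in TG2 knockout cells, adjusted p = 0.00721). Quantile normalization ended both HDAC2 calls at 48 h (adjusted p = 0.346 and 0.607). Both 72 h HDAC1 calls were lost without any 1 array compared except replicate 3 of the ATRA group (adjusted p 0.0592 to 0.132). The 48 h wild-type HDAC1 call was lost without untreated replicate 2 or ATRA replicate 1 or 2 (0.0587 to 0.0732). Both 48 h HDAC2 calls were lost without ATRA replicate 2 (0.0716 and 0.111). The TG2 knockout one was also lost without untreated replicate 1 or 3 or ATRA replicate 1 (0.0541 to 0.109). As a family the HDAC genes had medians of −0.09, −0.09, −0.10 and −0.18, which became 0.05, 0.08, 0.09 and −0.01 with quantile normalization, so no direction can be given for the family. Of the family 45.5%, 45.5%, 54.5% and 45.5% were called, near the 39.1%, 44%, 42.8% and 41.7% of all genes. In each comparison 36.4% were lower, beside 22.6% to 24.5% of all genes and 34.5% to 37.4% of brighter genes. The HDAC share was thus near that of brighter genes.

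Calls were sparse among the lysine demethylases. Between 3 and 6 of the 18 were called lower in a comparison and none was called higher, and quantile normalization turned their wild-type medians from −0.13 and −0.12 to 0.07 and 0.10 and called 1 or 2 of them higher. The lower share was 22.2%, 16.7%, 33.3% and 22.2%, beside 22.6%, 24.4%, 24.5% and 23.5% of all genes. Among brighter genes it was 34.5%, 37.4%, 37.3% and 35.6%. Falls were thus about as common as over all genes, apart from 48 h in TG2 knockout cells, and less common than among brighter genes. KDM1B, a flavin-dependent demethylase (probe set 8117081, chromosome 6), was the only one lower in all 4 comparisons. It read 7.77, 7.51 and 7.81 untreated, 6.86, 6.69 and 7.13 at 48 h and 7.22, 6.43 and 6.80 at 72 h in wild-type arrays, and 7.76, 7.80 and 7.71, then 6.85, 6.36 and 6.98, then 6.81, 6.92 and 7.24 in TG2 knockout arrays. Untreated and ATRA arrays did not overlap, and KDM1B fell by 0.80, 0.88, 1.03 and 0.77 (SE 0.20, adjusted p = 0.00449, 0.00202, 6.78e-04 and 0.00576). Its relative KDM1A, whose inhibitors are studied together with ATRA in leukemia, fell in wild-type cells by 0.39 and 0.52 (adjusted p = 0.0422 and 0.00876), and the changes of −0.32 and −0.35 in TG2 knockout cells were not called. These calls were not stable: with quantile normalization neither wild-type change was called (−0.11 and −0.22), the 48 h one was also lost with the replicate block (adjusted p = 0.0531), with eBayes without trend (0.054) and without any 1 of 5 of its 6 arrays (0.0858 to 0.127), and both TG2 knockout changes were called with weights per group (0.0475 and 0.0207).

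KDM6A, which erases the EZH2 mark (probe set 8166956, chromosome X), showed the widest scatter of the named members. Its untreated arrays were 8.26, 8.24 and 8.28 in wild-type and 8.16, 8.17 and 8.15 in TG2 knockout cells. After ATRA it was 7.35, 6.50 and 7.23 at 48 h and 7.61, 6.48 and 7.10 at 72 h in wild-type arrays, and 7.08, 5.89 and 7.70 at 48 h and 7.45, 7.12 and 7.63 at 72 h in TG2 knockout arrays. Replicate 2 was lowest each time. KDM6A fell by 1.23, 1.20 and 1.27 in the first 3 comparisons (SE 0.35, adjusted p = 0.0119, 0.0126 and 0.00958), and the 72 h TG2 knockout change of −0.76 was not called (adjusted p = 0.0958) but was with the replicate block (0.0362), with weights per group (0.0269) and with only the arrays compared (0.00423). Without replicate 2 of the ATRA group the changes were −0.97, −0.91 and −0.77 with no call (adjusted p = 0.0671, 0.0676 and 0.0533). KDM6B, the other eraser of that mark, gave 0.39, 0.38, 0.49 and 0.46 and was not called.

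The same replicate stood out over the members as a set at 48 h, though not in every family. How many of all genes were lowest in it was not counted. Of the 72 members other than KDM5D, 45 were lowest in replicate 2 of the wild-type 48 h group and 44 in replicate 2 of the TG2 knockout 48 h group, against 29 and 27 at 72 h. Among the KDM genes it was 11 and 14 of 17 at 48 h, and among the acetyltransferases 7 and 7 of 9. The KMT family had 14 and 12 of 20, and the HDAC genes 10 and 4 of 11. The PRMT genes had 2 and 5 of 8, and the sirtuins 1 and 2 of 7. Without replicate 2 of the ATRA group the members called lower were 25 at 48 h and 30 at 72 h in wild-type cells, and 30 and 31 in TG2 knockout cells. Calls over all probe sets also went down, in wild-type cells from 38.9% to 31% at 48 h and from 44% to 38.8% at 72 h. In TG2 knockout cells they went from 41.4% to 33.4% and from 42% to 41.8%. At 48 h in wild-type cells 30 members were called in either direction without replicate 2, and 34 or 35 without 1 untreated array. In TG2 knockout cells at 48 h it was 35 without replicate 2. Without untreated replicate 1, 2 or 3 it was 31, 34 and 37 there. What set these arrays apart was not tested.

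The sirtuins, deacylases that use NAD, were the family without a called fall. At 48 h and 72 h in wild-type cells 3 of 7 rose, in TG2 knockout cells 4 and 3, and none was called lower. Quantile normalization gave 5 or 6 rises and no fall. As deposited, 42.9% to 57.1% of them were higher in a comparison, beside 16.5% to 19.6% of all genes. SIRT5, a mitochondrial enzyme that removes succinyl and related groups (probe set 8116956, chromosome 6), went from 6.80, 6.92 and 6.89 in untreated wild-type arrays to 8.10, 7.88 and 8.19 at 48 h and 7.97, 7.96 and 8.12 at 72 h. In TG2 knockout arrays it went from 7.08, 7.03 and 6.93 to 7.90, 7.37 and 8.17 and then to 8.29, 7.93 and 8.22. Every ATRA array lay above every untreated one, and SIRT5 rose 2.28-fold and 2.21-fold in wild-type and 1.74-fold and 2.19-fold in TG2 knockout cells (SE 0.16 on the log2 scale, adjusted p = 3.21e-05, 3.97e-05, 0.0011 and 5.52e-05).

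SIRT7, a nucleolar and chromatin-bound deacetylase (probe set 8019296, chromosome 17), was 7.31, 7.33 and 7.38 untreated, 8.36, 8.30 and 8.29 at 48 h and 8.44, 8.19 and 8.27 at 72 h in wild-type arrays. The other genotype gave 7.39, 7.43 and 7.25, then 8.08, 8.20 and 8.11, then 8.07, 8.18 and 8.03. These tight groups did not overlap with the untreated ones, and SIRT7 rose by 0.98, 0.96, 0.77 and 0.74 (SE 0.10, adjusted p = 1.27e-06, 1.27e-06, 1.42e-05 and 2.29e-05). SIRT2, a largely cytoplasmic deacetylase that acts on tubulin, rose by 0.72, 0.62, 0.50 and 0.52 (SE 0.12). SIRT6 was called at 48 h in TG2 knockout cells only (0.37, adjusted p = 0.0162), and SIRT1, the best known member, gave 0.07, 0.04, −0.08 and 0.17 with no call. Besides KMT5C, HDAC1, PRMT2 and SIRT2, SIRT5 and SIRT7 no member was called higher in wild-type cells, and the count of 6 at 72 h became 3 when replicate 1 of that group was left out.

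Both genotypes gave the same picture for the members. Each genotype has its own untreated arrays. At 48 h 67 of 73 changes had the same sign and 34 members were called in the same direction in both genotypes; at 72 h it was 70 and 31, and none was called in opposite directions. Over members, Pearson's r between wild-type and TG2 knockout changes was 0.954 at 48 h and 0.952 at 72 h, beside 0.935 and 0.927 over all genes; genes within the same arrays are not independent, and no p is given.

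**Figure D4:**
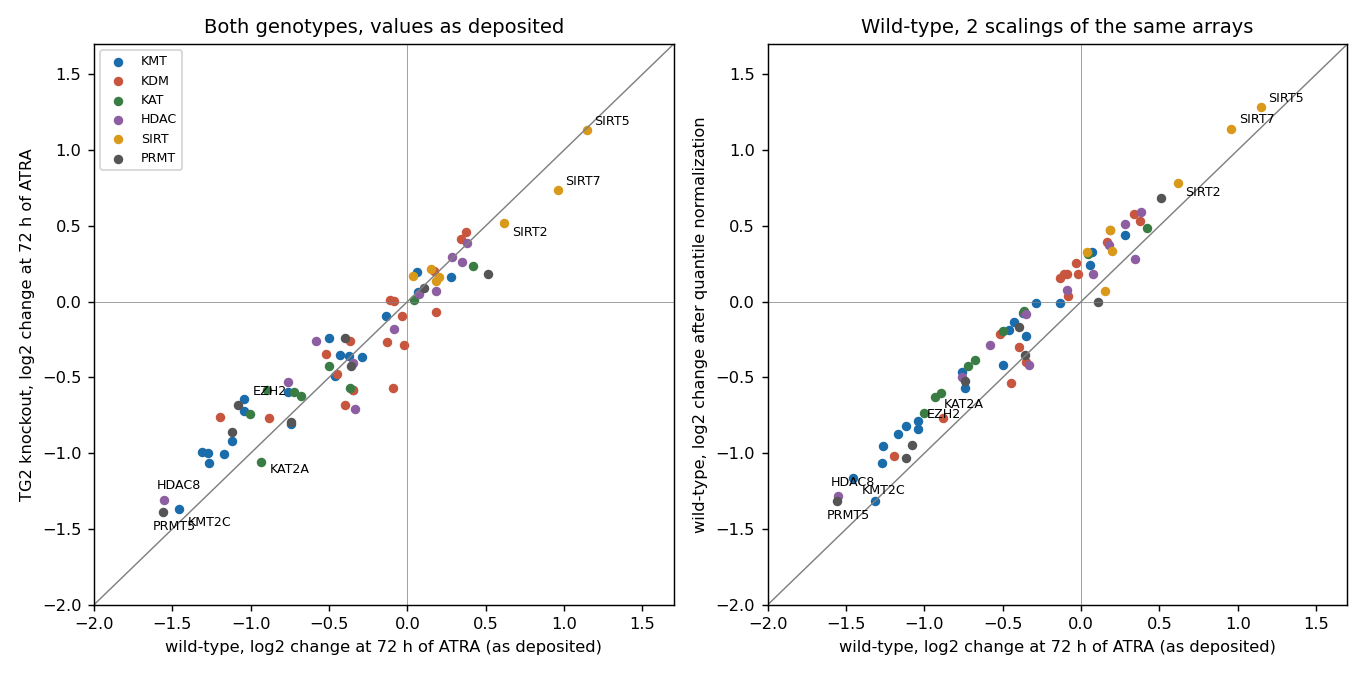
Log2 change at 72 h of ATRA in wild-type cells (horizontal axis, values as deposited) of 72 members, coloured by family, against the change in TG2 knockout cells (left) and against the wild-type change after quantile normalization (right); the diagonal marks equal values. On the left PRMT5, HDAC8 and KMT2C lie lowest and SIRT5, SIRT7 and SIRT2 highest in both genotypes; on the right most points lie above the diagonal, and 8 of 73 members change sign.

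Time added little. Between 72 h and 48 h of ATRA 0 members were called in either genotype by limma, as were 0% of all genes, with 1 and 0 members at an unadjusted p below 0.05. The 1 member in wild-type cells was KDM5D, whose values are not given. Next came PRMT9, which differed by −0.33 in wild-type cells (SE 0.17, adjusted p = 0.866 by limma). In TG2 knockout cells KDM4B and SIRT1 had the smallest p, with differences of −0.25 and 0.25 (adjusted p = 0.615 and 0.618).

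The comparison the series was built for sets cells labelled TG2 knockout beside wild-type cells at the same time point; as given above, TGM2 rose with ATRA in both. It found 0 members called in untreated cells, at 48 h and at 72 h by limma. Over all genes 0.0109%, 0.0271% and 0.0977% were called, so a call was rare in any case, and 1, 2 and 5 members had an unadjusted p below 0.05. HDAC2 came nearest: at 72 h it was 9.22, 9.38 and 9.28 in wild-type and 9.67, 9.66 and 9.58 in TG2 knockout arrays, which did not overlap, a difference of 0.34 (SE 0.12, adjusted p = 0.279). KDM2B, a demethylase that brings Polycomb complexes to CpG islands, read 8.51, 8.26 and 8.20 against 7.68, 8.39 and 7.64, which overlap, a difference of −0.42 (SE 0.17, adjusted p = 0.354). In untreated cells KDM4D was 5.96, 5.97 and 6.13 in wild-type and 6.39, 6.45 and 6.30 in TG2 knockout arrays, 0.36 apart (SE 0.14, adjusted p = 1). Untreated groups scatter little, and a fit that gives each group its own weight called KDM4D (adjusted p = 0.022) and no other member. That fit called 0.928% of all probe sets, where the main fit called 0.00601%. Untreated, at 48 h and at 72 h, 32.9%, 4.11% and 13.7% of members did not overlap between genotypes. Over all genes it was 19.6%, 7.14% and 12.5%. HDAC9, a class IIa deacetylase, followed in untreated cells at 0.34. At 48 h KDM4B (0.30, adjusted p = 0.772) and KMT2D (0.29, adjusted p = 0.822) had the smallest p.

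**Figure D5:**
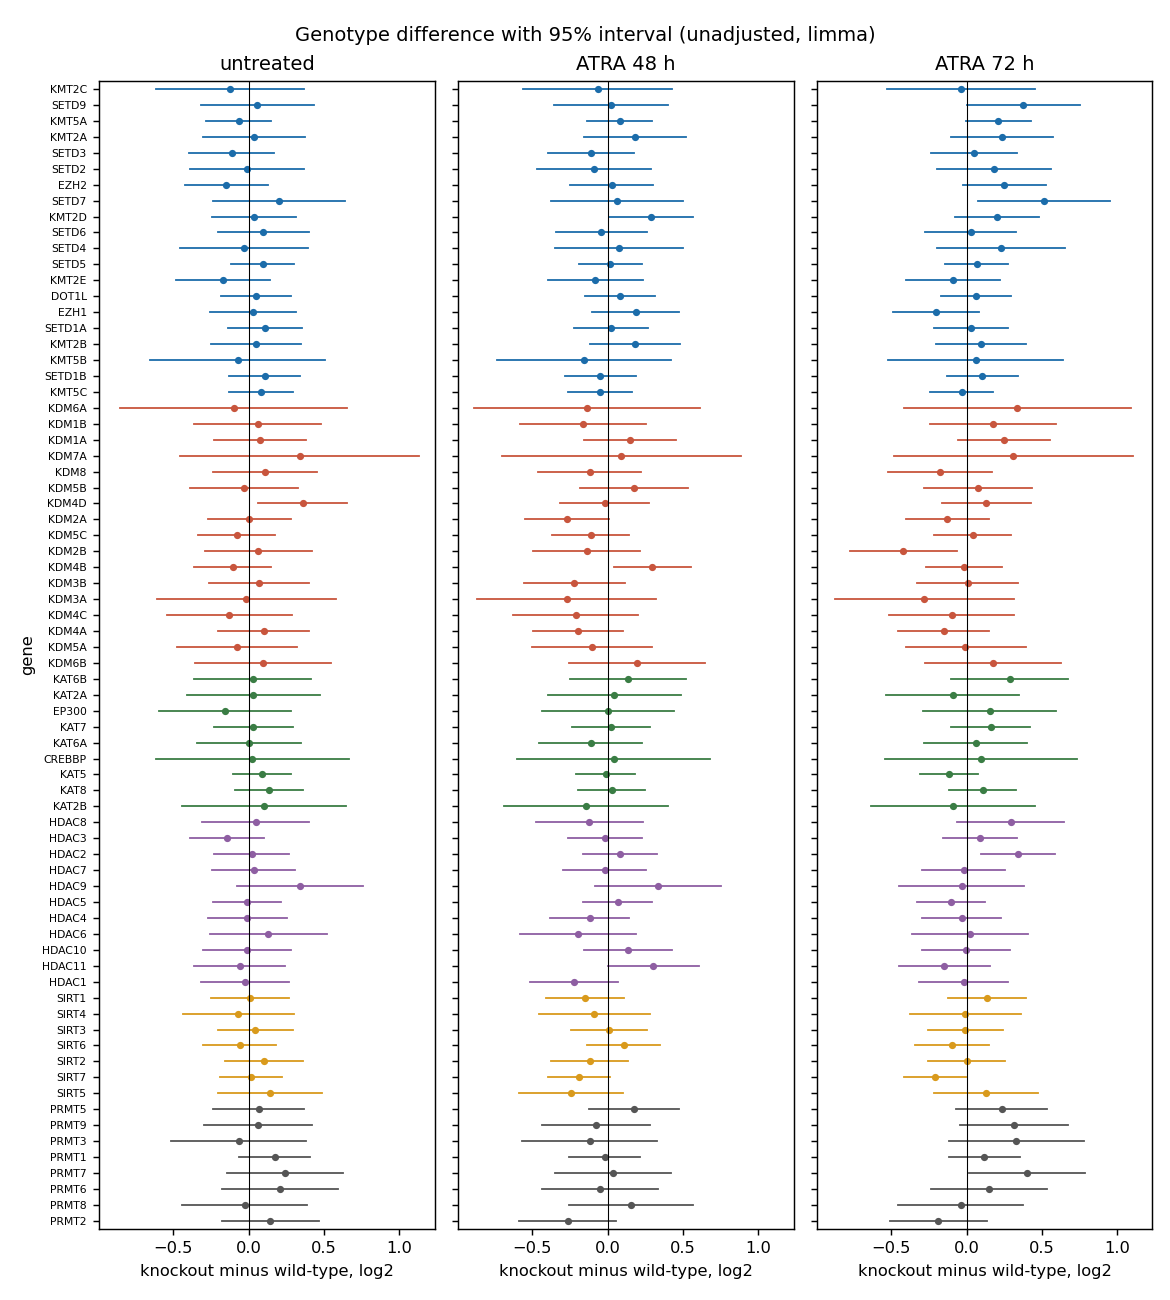
TG2 knockout minus wild-type, in log2 units with unadjusted 95% intervals from limma, for 72 members (rows, coloured by family) in untreated cells and at 48 h and 72 h of ATRA. Most intervals include 0; those of HDAC2 and KDM2B at 72 h and of KDM4D in untreated cells do not, and none of these passed the adjusted threshold.

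The median SE of a genotype difference was 0.149 in untreated cells, at 48 h and at 72 h. It was the same because 1 spread per probe set was pooled over all groups. Untreated arrays scattered less than ATRA arrays, so the untreated intervals are wider than their own arrays would give. The 95% interval lay within 1 log2 unit of 0 for 72 of 73 members in untreated cells. It did so for 73 at 48 h and for 71 at 72 h. The response to ATRA itself differed between genotypes for 0 members at 48 h and 0 at 72 h (interaction in limma; 1 and 1 at an unadjusted p below 0.05, and 0% of all genes called). For EZH2 the fall at 72 h was smaller in TG2 knockout cells by 0.40 (SE 0.18, adjusted p = 1). For KDM4B, a demethylase of the JmjC fold, the 48 h responses differed by 0.40 (SE 0.17, adjusted p = 1). Next in p were KDM4D at 48 h (−0.38) and KDM2B at 72 h (−0.48), both with an adjusted p of 1.

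Partners of these enzymes in their complexes were listed apart from the members. At 72 h in wild-type cells 5 of 9 PRC2 partners fell and none rose, with JARID2 at −0.96 and RBBP7, a histone-binding subunit, at −1.11. Of the COMPASS and MLL partners 9 of 13 fell and none rose, led by PAXIP1 (−1.11) and HCFC1 (−1.02). Among partners of HDAC corepressors 12 of 20 fell and 1 rose; TBL1X, which holds HDAC3 in its corepressor complex, had −2.20 and MTA3 of the NuRD complex −1.64. Acetyltransferase complexes had 14 falls and 3 rises among 26, with SUPT20H of SAGA at −1.41 and MEAF6 at −1.33. The medians of these 4 lists were −0.69, −0.60, −0.46 and −0.46. In TG2 knockout cells at 72 h the falls numbered 5, 8, 11 and 15 and the rises 0, 0, 1 and 3. Over all genes at 72 h 24.4% were lower and 19.6% higher in wild-type cells, and 23.5% and 18.2% in TG2 knockout cells. Among brighter genes 37.4% and 35.6% were lower. The brightness of the listed genes was not taken into account.

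Related enzymes whose symbols fall outside the rule also fell more often than they rose, to be read beside the shares of all genes just given. Of 16 other methyltransferases 12 fell and 1 rose at 72 h in wild-type cells, with SETMAR at −1.82 and CARM1, an arginine methyltransferase, at −1.52. Of 8 other acetyltransferases 6 fell and none rose, with GTF3C4 at −1.61 and CLOCK at −1.60. Of 10 other hydroxylases with a JmjC fold 6 fell and 1 rose, with RIOX2 at −1.73 and JMJD8 at −0.81. No gene of the partner and related lists was called between genotypes.

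Markers of the state of the cells moved as well, where 24.4% of all genes were lower and 19.6% higher at 72 h in wild-type cells. Among brighter genes 37.4% were lower and 18.4% higher there. Of 24 proliferation genes 17 fell and none rose at 72 h in wild-type cells (median −0.88; 17 fell in TG2 knockout cells too), with CENPE at −1.87 and BUB1B at −1.50. Of 8 promyelocyte and granulocyte genes 6 rose and 2 fell at 72 h in wild-type cells. CSF3R was at 2.33, ITGAM at 2.32 and CTSG, a primary granule protease, at −2.48. In TG2 knockout cells 4 of the 8 rose and 2 fell at 72 h. The mean signal of these genes per array was 9.14 to 9.40 untreated and 9.62 to 9.87 after ATRA. Monocyte and macrophage genes (6 measured of 8) averaged 5.33 to 5.53 untreated and 5.53 to 6.28 after ATRA. At 72 h 5 were called higher in wild-type and 1 in TG2 knockout cells, beside 19.6% and 18.2% of all genes. None of these 6 genes was called between genotypes at 72 h (smallest adjusted p = 0.099 by limma) or in the difference of response. Lymphocyte genes (7 of 8) averaged 6.39 to 6.45 and 6.42 to 6.75, and erythroid and megakaryocyte genes (5 of 7) 5.22 to 5.44 and 5.53 to 5.87. Single genes of these lists were called at 72 h all the same. Of the lymphocyte genes 3 were higher and 2 lower in wild-type cells, and 2 and 2 in TG2 knockout cells. Of the erythroid and megakaryocyte genes 3 were higher and 0 lower in each genotype. No marker was at 0, and no detection call was used here. The part of proliferation or cell type in the changes of the members was not tested.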

How the data were processed

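RNA of 18 NB4 cultures was hybridised to Affymetrix whole-transcript arrays. Each deposited value, taken here as log2, belongs to 1 probe set on 1 array; how the authors normalized and summarised probes is not given in the sources used here. Of 33297 probe sets 19460 are annotated to 1 gene, 1754 to several and 12083 to none. limma 3.58.1 in R 4.3.3 fitted 1 mean per group to all 18 arrays (eBayes with trend). P-values were adjusted by Benjamini-Hochberg across the 33297 probe sets, separately for 11 contrasts, and called below 0.05. Each rests on 1 spread per probe set, pooled over the 6 groups and drawn by eBayes towards a trend over all probe sets. It is not the spread of the groups compared alone, and it covers only variation between these cultures. Untreated groups scattered less than ATRA groups, and the p-values do not follow that difference. Code was tested on simulated data.

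Members, lists and tests were chosen with earlier results of these data known. Named are, per family, up to 4 called members with the largest 72 h wild-type change, in genotype, time and response comparisons the 2 with the smallest p, and up to 2 called genes per list. Other members named beside a relative or within a count were chosen after their values were seen, and a planned naming by level was dropped because probe sets cannot be compared in level. Replicate numbers were checked as pairs: between the 72 h groups every same-numbered pair had r above the limit of 0.1 (0.103, 0.16 and 0.138 across probe sets), which no other pair of groups reached for all 3 numbers, and the replicate block left 0 members called there. Promoters are from RefSeq GRCh38.p14.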

Additional observations from a re-analysis of the deposited data

How the results depend on the processing

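Alternatives were quantile normalization, median centring, brighter or single-gene probe sets only, eBayes without trend, weights per group, only the arrays compared, the replicate block, second probe sets, and leaving out each array. The second probe set of a gene was its next brightest. No called change of a named gene changed sign under these alternatives. The dimmest KMT5A probe set was not used there and gave 0.20, 0.30, 0.12 and −0.21 after ATRA, none of them called. With quantile normalization, though, 9, 8, 10 and 7 of 73 member changes after ATRA took the other sign (none called in opposite directions), and the wild-type medians of the KDM and HDAC families turned from below to above 0. The partner, related-enzyme and marker lists were not recomputed under any alternative. Members called higher in wild-type cells at 48 h and 72 h and in TG2 knockout cells at 48 h and 72 h numbered 12, 14, 11 and 11 with quantile normalization, against 6, 6, 6 and 4 as deposited. Weights per group gave 7 higher in TG2 knockout cells at 72 h, and 1 member called between untreated genotypes, where 0.928% of all probe sets were called. In the same order, leaving out 1 array gave 5 to 6, 3 to 6, 4 to 7 and 3 to 4 members called higher and 25 to 33, 27 to 30, 27 to 35 and 27 to 31 called lower. With the replicate block 6, 7, 6 and 4 members were higher and 32, 35, 37 and 34 lower, and 0 were called in the other 7 comparisons. Like-numbered ATRA arrays also deviated together, less than the 0.1 limit for 1 pair each, between wild-type 48 h and 72 h (r = 0.095, 0.137 and 0.186) and between the 48 h groups (0.196, 0.194 and 0.089). Among values of named genes under an alternative, 1564 kept their direction and call, 88 lost a call (18 with quantile normalization, 61 without 1 array) and 11 gained one. Signal over background is unknown, and 3 arrays per group limit the precision.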
